A study of Mus musculus with 4 samples.

Results

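Broad shared regions at gene ends are the widest merged stretches of open chromatin beside protein-coding genes with peaks from all 4 mouse ATAC-seq libraries. They were found by merging the peaks of the 4 lists wherever they overlapped by at least 1 bp. A merged region was kept when every library had a peak in it, when it was 2000 bp or wider, and when any part of it lay within 1 kb of an annotated end of a protein-coding gene on chromosomes 1 to 19. This left 1117 regions of 13778 shared regions at gene ends, of 56633 shared regions in all, and of 117196 merged regions. The other 12661 shared regions at gene ends were narrower and are the main comparison below. The members were chosen by merged width and by presence in all 4 lists, so both are given as a description.

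The small-intestinal stem cells (SISC, libraries 1 and 2) were the Lgr5-EGFP+/CD24- cells of tissue taken near the pylorus and near the cecum. The large-intestinal stem cells (LISC, libraries 1 and 2) were Lgr5-EGFP+ cells, for which the labels give no CD24 gate, of tissue between cecum and rectum. All 4 libraries came from Lgr5-EGFP-IRES-creERT2 mice 6 to 12 weeks old, so both groups carry the same reporter allele, which marks cells that transcribe Lgr5. Each used 50000 cells, a transposition of 1 h at 55 °C and 10 PCR cycles. Whether libraries 1 and 2 of a tissue were made from different mice is not stated, and their spread may be technical. Of markers, all 8 of intestinal epithelium had a called gene end in every library, while of 8 immune markers 2 were called in each SISC library and 1 in each LISC library, with Ptprc, Cd3e, Cd3g, Lyz2 and Tyrobp among those called in none; of 8 stromal, endothelial and muscle markers 3 to 4 were called per library. Of 6 Lgr5 stem cell markers 6 and 5 were called in SISC 1 and 2, and 4 and 5 in LISC 1 and 2, with Axin2 missing from SISC 2 and LISC 1 and Olfm4 from both LISC libraries. Goblet and enteroendocrine markers were called 2 of 2 in every library. Of 2 Paneth markers Lyz1 was missing from LISC 1, and of 2 tuft markers Dclk1 from SISC 1 and LISC 2. A called gene end thus does not tell stem cells from these lineages.

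ATAC-seq uses the Tn5 transposase to insert adapters where DNA is free of nucleosomes or loosely packed. An active mammalian promoter usually shows as a compact peak over the nucleosome-depleted stretch at the transcription start, and many start in CpG islands, stretches in which the CpG dinucleotide has been kept. Open chromatin that reaches well beyond that stretch has been described at genes of developmental regulators and cell identity and at very highly transcribed genes. In the crypt, Lgr5-positive stem cells depend on Wnt and Notch signals and renew the epithelium.

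The sequences that illustrate the comparison of promoter sequence are the 250 bases before an annotated start. They are shown for 8 genes with a broad region and 2 genes with a narrower one (RefSeq, GRCm38.p6, printed 5′ to 3′ on the gene's strand). Foxo1, a forkhead factor downstream of insulin signalling, and Ihh, the hedgehog ligand of the gut epithelium, are among the 10 widest members. Kmt2a and Kmt2c are histone H3 lysine 4 methyltransferases, Notch1 is a receptor and Ascl2 a Wnt target factor of crypt stem cells. Sox11 and Slc9a9 show a region longer in SISC and one longer in LISC, and Slc9a9 shows a listed start in CpG-poor sequence. The bases printed for Slc9a9 lie inside the annotated gene, which begins at chr9:94669557, and those before that position are not shown. Psmc1, a proteasome ATPase, and Rps6, a ribosomal protein, show the ETS site and were picked from genes that hold it. Capitals mark the GC box (GGGCGG or its complement CCGCCC, bound by Sp and Klf factors) and the ETS site (CCGGAAGT or ACTTCCGG, bound by ETS factors).
Foxo1, chr3:52268087-52268336, plus strand: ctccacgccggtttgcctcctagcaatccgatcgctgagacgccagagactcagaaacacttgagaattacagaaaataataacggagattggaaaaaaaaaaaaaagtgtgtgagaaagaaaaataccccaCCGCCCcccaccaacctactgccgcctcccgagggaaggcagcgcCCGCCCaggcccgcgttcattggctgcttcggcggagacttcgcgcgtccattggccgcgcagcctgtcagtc
Ihh, chr1:74951673-74951922, minus strand: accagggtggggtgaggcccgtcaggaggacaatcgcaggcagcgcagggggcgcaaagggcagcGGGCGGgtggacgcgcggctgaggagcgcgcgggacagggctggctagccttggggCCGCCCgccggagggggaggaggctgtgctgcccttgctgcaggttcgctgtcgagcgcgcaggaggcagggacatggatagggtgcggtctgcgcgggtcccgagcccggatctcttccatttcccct
Kmt2a, chr9:44881290-44881539, minus strand: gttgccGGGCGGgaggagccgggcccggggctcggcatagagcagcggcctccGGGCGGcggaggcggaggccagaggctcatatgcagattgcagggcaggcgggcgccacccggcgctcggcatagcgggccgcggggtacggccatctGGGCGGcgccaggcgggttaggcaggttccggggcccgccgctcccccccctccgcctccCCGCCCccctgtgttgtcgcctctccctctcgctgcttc
Kmt2c, chr5:25498784-25499033, minus strand: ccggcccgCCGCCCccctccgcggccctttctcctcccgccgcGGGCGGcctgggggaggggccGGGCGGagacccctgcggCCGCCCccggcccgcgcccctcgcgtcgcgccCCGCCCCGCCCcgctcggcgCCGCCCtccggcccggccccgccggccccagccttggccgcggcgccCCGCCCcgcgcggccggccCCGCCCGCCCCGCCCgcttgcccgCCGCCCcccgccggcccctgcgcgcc
Notch1, chr2:26503823-26504072, minus strand: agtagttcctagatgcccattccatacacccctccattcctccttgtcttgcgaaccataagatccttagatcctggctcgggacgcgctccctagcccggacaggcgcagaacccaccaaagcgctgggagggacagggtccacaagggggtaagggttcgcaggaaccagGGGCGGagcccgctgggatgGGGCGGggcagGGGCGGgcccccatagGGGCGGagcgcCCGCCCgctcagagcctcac
Ascl2, chr7:142969265-142969514, minus strand: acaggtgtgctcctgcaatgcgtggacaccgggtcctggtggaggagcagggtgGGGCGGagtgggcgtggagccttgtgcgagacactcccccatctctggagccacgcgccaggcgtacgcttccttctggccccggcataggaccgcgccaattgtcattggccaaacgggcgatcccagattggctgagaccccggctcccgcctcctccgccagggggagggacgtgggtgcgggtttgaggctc
Sox11, chr12:27342719-27342968, minus strand: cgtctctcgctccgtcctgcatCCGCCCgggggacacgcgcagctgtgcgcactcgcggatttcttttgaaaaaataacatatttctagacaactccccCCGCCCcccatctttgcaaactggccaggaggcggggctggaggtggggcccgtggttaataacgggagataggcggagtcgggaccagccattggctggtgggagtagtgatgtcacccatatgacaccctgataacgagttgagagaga
Slc9a9, chr9:94669642-94669891, plus strand: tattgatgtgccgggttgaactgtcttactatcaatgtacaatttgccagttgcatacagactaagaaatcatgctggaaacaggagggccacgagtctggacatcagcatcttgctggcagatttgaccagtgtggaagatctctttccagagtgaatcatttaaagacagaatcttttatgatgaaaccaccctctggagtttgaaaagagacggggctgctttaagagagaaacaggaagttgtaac
Psmc1, chr12:100109952-100110201, plus strand: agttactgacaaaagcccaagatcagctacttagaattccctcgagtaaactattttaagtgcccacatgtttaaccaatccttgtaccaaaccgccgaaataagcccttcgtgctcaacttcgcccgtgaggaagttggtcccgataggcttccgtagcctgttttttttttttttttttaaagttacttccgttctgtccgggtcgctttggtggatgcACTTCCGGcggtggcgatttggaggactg
Rps6, chr4:86857368-86857617, minus strand: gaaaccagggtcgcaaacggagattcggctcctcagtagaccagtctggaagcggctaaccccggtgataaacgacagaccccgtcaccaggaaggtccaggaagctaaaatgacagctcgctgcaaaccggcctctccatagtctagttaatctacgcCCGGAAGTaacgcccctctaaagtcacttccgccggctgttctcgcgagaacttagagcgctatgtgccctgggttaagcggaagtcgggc

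The 250 bases held 12 GC boxes at Kmt2c, 5 at Notch1, 4 at Kmt2a, 2 each at Foxo1, Ihh and Sox11, and 1 at Ascl2. Slc9a9 held none, with 3 CpG dinucleotides against 16 to 48 at the other 7 broad genes. Psmc1 and Rps6 held no GC box and 1 ETS site each, where none of the 8 broad genes shown held an ETS site. The merged regions at Psmc1 and Rps6 were 951 and 1212 bp wide.

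The members were little wider than the threshold. Their median width was 2211 bp (quartiles 2095 and 2427 bp), the widest reached 3839 bp, and 31 were 3000 bp or wider. The bases that all 4 lists called had a median of 1715 bp per member, and 206 members had at least 2000 such bases. Just inside the threshold lay the regions at Pign and Inhbb with 2000 bp and at Macir, Gpr137b and Pitpnm1 with 2002 bp. Just outside it lay Pard3b, Lcmt2, Cadps2, Kdm5a and Pdcd6ip with 1999 bp each. Pign, inside, had 1747 and 2000 bp called in SISC 1 and 2 and 1755 and 1867 bp in LISC 1 and 2. Kdm5a, outside, had 1864 and 1987 bp in SISC and 1673 and 1735 bp in LISC. Gpr137b, also inside, had 1056 and 1444 bp in SISC and 1610 and 1971 bp in LISC. Members at the threshold therefore differed among themselves in how much of the region a library called.

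Most members were not a single broad peak in every library. Called length, the bases of a region covered by a library's own peaks, had a median of 1857 and 2132 bp in SISC 1 and 2, and of 1934 and 2042 bp in LISC 1 and 2. That was 1994.5 ± 194 bp in SISC and 1988 ± 76.4 bp in LISC (SD, n = 2 each), a difference smaller than the spread within either group. The members were 1 peak in 533 and 962 cases in SISC 1 and 2, and in 606 and 826 cases in LISC 1 and 2. In the remaining cases the region was broken into 2 to 5 peaks, with a median gap of 179 and 154 bp in SISC and of 163 and 167 bp in LISC. A single peak of 2000 bp or wider was present in all 4 libraries at 116 members, in 3 at 134, in 2 at 244, in 1 at 480 and in none at 143. Of the 480 members with such a peak in 1 library, that library was SISC 2 at 346, LISC 2 at 117, SISC 1 at 8 and LISC 1 at 9. Breadth therefore followed the replicate number more than the tissue, with both replicate 2 libraries broader.

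**Figure D1:**
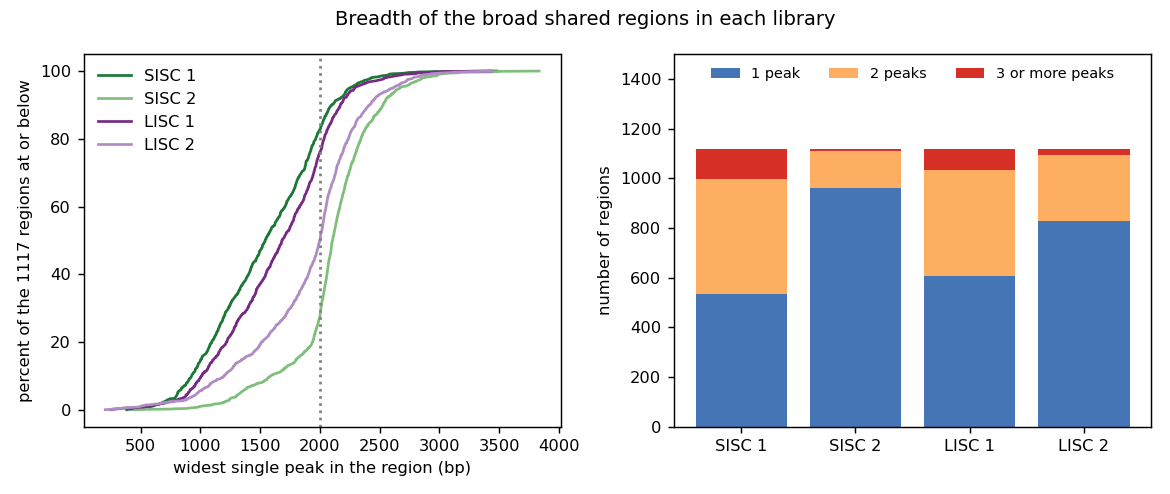
Breadth of the 1117 regions in each library. Left, the cumulative percent of regions (y axis) against the widest single peak in the region in bp (x axis), with a dotted line at 2000 bp. The SISC 2 and LISC 2 curves lie to the right of SISC 1 and LISC 1. Right, the number of regions made of 1, 2, or 3 or more peaks, with 533, 962, 606 and 826 single-peak regions in SISC 1, SISC 2, LISC 1 and LISC 2.

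The lists as a whole differed in the same direction. They held 272 and 1146 peaks of 2000 bp or wider in SISC 1 and 2, and 406 and 851 in LISC 1 and 2, among 83443, 93220, 91313 and 88739 peaks that covered 49.9, 63.3, 55.5 and 58.3 Mb. Peaks on the Y chromosome numbered 6 and 0 in SISC 1 and 2, and 8 and 0 in LISC 1 and 2. The part of either difference in the breadth of the members was not tested. Without SISC 2 only 737 regions met the rule, against 945 to 1093 without any other single library. Without SISC 1 the members that were a single broad peak in every library numbered 209, against 118 to 146 without any other.

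Where the strand of the gene is known, the members lay almost entirely at 5′ ends. Among regions whose genes all have a listed start, 822 of 855 members (96.1%) had a 5′ end within 1 kb, against 8523 of 9839 narrower regions (86.6%). The region reached a median of 939 bp before the start and 1307 bp after it, against 528 and 731 bp in narrower regions. It ran longer downstream than upstream in 64.3% of 813 members and in 65.9% of 8403 narrower regions, so the members were extended on both sides in about the same proportion. The strongest summit lay within 250 bp of the start in 68.4% of members and in 79.4% of narrower regions. At 1000 bp downstream of the start, 47.7% and 67.5% of members were called in SISC 1 and 2 and 51.5% and 61.0% in LISC 1 and 2; of narrower regions these shares were 11.5% and 18.8% in SISC and 12.7% and 15.4% in LISC. At 1000 bp upstream the members' shares were 33.9% and 41.3% in SISC and 35.5% and 38.6% in LISC. The libraries stood farther apart downstream of the start than upstream, and the replicate 2 libraries were the higher ones on both sides.

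**Figure D2:**
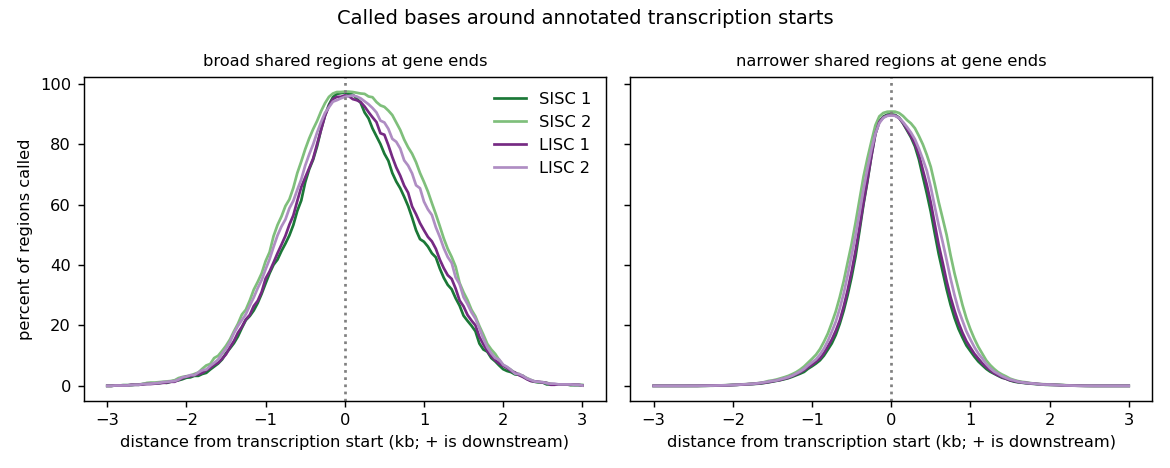
Percent of regions called (y axis) by distance from the annotated transcription start in kb (x axis, downstream to the right), for broad shared regions (left panel) and narrower shared regions (right panel), with 1 line per library. The broad regions fall off slowly on both sides and still reach 47.7% to 67.5% at 1000 bp downstream, where narrower regions are at 11.5% to 18.8%.

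More than 1 promoter lay in some members. A pair or more of genes had an end within reach in 195 members (17.5%, exact 95% interval 15.3 to 19.8) and in 15.7% of narrower regions (15.0 to 16.3), and these intervals overlap. Protein-coding starts on both strands were found at 107 of 855 members (12.5%, 10.4 to 14.9) and at 7.82% of narrower regions (7.29 to 8.36). A start of a gene of another biotype, such as a long non-coding RNA, lay within 1 kb of 13.4% of members and of 8.53% of narrower regions. A wider region reaches more sequence, and the part of that in these shares was not tested. The intervals take each region as independent of the others. The region with the most genes lay at Tomm6, a subunit of the mitochondrial import channel, with ends of Prickle4, Frs3, Gm20517 and Usp49 within reach. Its called length was 1805 and 2025 bp in SISC 1 and 2 and 1769 and 1916 bp in LISC 1 and 2. The region at Nme3, a nucleoside diphosphate kinase, took in Mrps34, Mapk8ip3 and Eme2, with 1598 and 2547 bp in SISC and 1962 and 2112 bp in LISC. Regions with 3 genes lay at Cdc42ep5, Hdac3 and BC029722.

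The members were not the tallest peaks. The fold enrichment at the highest summit in the region, the authors' own value over the local background of that library, had a median of 8.50 and 6.81 in SISC 1 and 2 and of 8.29 and 6.18 in LISC 1 and 2. In narrower regions the medians were 10.4 and 8.49 in SISC and 9.98 and 7.29 in LISC. The members were lower in 4 of 4 libraries, by 1.58 ± 0.323 on average (SD, n = 4), with an exact permutation p of 1 in 8, the smallest that 4 libraries can give. Width and height come from the same peak calls, so the comparison is a description. The median percentile of −log10 q within a list was 88.9 and 89.2 in SISC and 89.8 and 88.4 in LISC, against 87.0 and 88.3 in SISC and 87.4 and 86.6 in LISC for narrower regions, so by that measure the members were higher in 4 of 4.

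Height changed with width in both directions, and the contrast depends on where the threshold stands. In shared gene-end regions of 1000 to 1500 bp the median fold was 12.3 and 10.0 in SISC 1 and 2 and 12.0 and 8.68 in LISC 1 and 2. In those under 500 bp it was 4.41 and 4.01 in SISC and 4.18 and 3.39 in LISC. In the 31 of 3000 bp or wider it was 5.53 and 4.76 in SISC and 5.27 and 4.36 in LISC. Regions of intermediate width were the tallest in every library, and with a threshold of 1500 bp the mean difference turned to 0.14. The 641 broad shared regions away from gene ends had medians of 7.61 and 6.44 in SISC and 7.53 and 5.75 in LISC, below the members in each library.

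The annotated starts at members were richer in CpG than those at narrower regions. In the 300 bases from 250 before to 50 after the start, the median ratio of observed to expected CpG was 0.815 in 1111 windows of 921 member genes, 0.768 in 9943 windows at narrower regions and 0.586 in all 20084 windows. The median GC content was 66%, 61.3% and 57% in the same order. Windows with a ratio of at least 0.6 and a GC content of at least 50% made up 79.6%, 69.9% and 46.5%. The part of GC content in how wide the peaks were called was not tested.

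Of 13 short motifs, the GC box was more frequent at member starts and the ETS site less frequent. The GC box was in 73.8% of member windows, 65.8% of windows at narrower regions and 47.0% of all windows. Within CpG-rich windows alone these shares were 81.2%, 77.1% and 76.8%, so most of the gap to all windows was gone. The ETS site was in 3.42%, 8.81% and 5.28%. Within CpG-rich windows alone the ETS site was in 30 of 884 member windows (3.39%), 10.7% of those at narrower regions and 9.16% of all. The CCAAT box of NF-Y was in 31.7%, 38.4% and 38.1%, and the TATA box, TATAAA, in 6.12%, 6.69% and 12.7%. The NRF1 site was in 8.55%, 10.6% and 6.55%, and the cAMP response element, TGACGTCA, in 2.07% of member windows and 3.50% of windows at narrower regions. The YY1 site was in 1.80%, 2.00% and 1.19%. The AP-1 site TGANTCA, the E-box CACGTG, the TCF/LEF site CTTTGAT, the GATA site AGATAA and the heat shock element core GAANNTTC were in 4.23%, 10.4%, 1.53%, 5.49% and 5.49% of member windows, and in 4.68%, 10.4%, 2.55%, 5.76% and 5.55% of windows at narrower regions. The serum response element was in 1.62% of member windows and 1.08% of windows at narrower regions. Both strands were searched and motifs may overlap each other; a match is a match of letters and not a bound site. Among proteasome genes at narrower regions 8 of 34 windows held the ETS site, as at Psmc1 above, and among ribosomal protein genes 11 of 62, as at Rps6. Among chromatin regulators it was in 0 of 12 member windows and in 0 of 16 windows at narrower regions.

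Genes of some groups had broad regions more often than protein-coding genes in general. Of 20661 protein-coding genes, 1305 (6.32%) had an end at a member, which is 9.93% of the 13145 genes with an end at any shared region. These shares are the background for the counts that follow. The lists were chosen with earlier results known, no test was made on them, and a list far from the background is a count and not a call.

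Chromatin regulators stood at the upper end, with 13 of the 31 genes that had a shared region (41.9%). They were Kmt2a, Kmt2b, Kmt2c, Eed, Arid1b, Chd4, Chd7, Ep300, Brd2, Tet3, Kdm6b, Ctcf and Trim28. The median width of the widest gene-end region was 1856 bp over the list and 1372 bp over all 13145 genes. Kmt2c, the widest, had a called length of 2228 and 2532 bp in SISC 1 and 2 and of 2285 and 2613 bp in LISC 1 and 2, as 1 peak in every library. Kmt2a had 1975 and 2602 bp in SISC and 2109 and 2134 bp in LISC. Both were taller than the median member in every library. The fold at Kmt2c was 10.8 and 8.58 in SISC and 9.93 and 7.57 in LISC. These values were near the medians of narrower regions, 10.4 and 8.49 in SISC and 9.98 and 7.29 in LISC. At Kmt2a the fold was 11.5 and 8.87 in SISC and 11.3 and 9.40 in LISC. The called lengths of SISC and LISC overlapped at both genes. Chd7, a chromodomain remodeller, had 2340 and 2377 bp in SISC and 1917 and 2000 bp in LISC, without overlap.

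Intestinal transcription factors had a member at 8 of 25 genes with a shared region (32%), among them Cdx1, Foxa2, Gata5, Gata6, Isx, Ppara and Maf. Maf, a basic leucine zipper factor, had 2429 and 2649 bp in SISC 1 and 2, against 1728 and 1443 bp in LISC 1 and 2. Cdx1, a homeobox factor of intestinal identity, had 1624 and 2088 bp in SISC, against 1272 and 1131 bp in LISC, in a region shared with Gm52351. Gata5 had 1913 and 2187 bp in SISC, against 1009 and 1274 bp in LISC. In these 3 both SISC libraries were longer than both LISC libraries. Foxa2, a pioneer factor of endoderm, had 1874 and 2216 bp in SISC and 2147 and 2471 bp in LISC, which overlap.

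Of genes of Wnt signalling and the crypt stem cell, 5 of 26 had a member (19.2%): Lgr5, Znrf3, Ascl2, Sox9 and Tcf7. Lgr5, the R-spondin receptor on which the sort rests, had 1887 and 2229 bp in SISC 1 and 2 and 1844 and 2041 bp in LISC 1 and 2. It was 1 peak in every library, with a fold of 5.78 and 5.63 in SISC and 5.58 and 4.57 in LISC. The Lgr5 regions overlapped between the tissues in length, and the allele that carries the reporter lies at this gene. Ascl2 had 2123 and 2342 bp in SISC and 2337 and 2386 bp in LISC. Znrf3, a ubiquitin ligase that removes Wnt receptors, was the tallest of the 5 with a fold of 14.5 and 9.79 in SISC and 13.8 and 9.41 in LISC. Its called length was 1567 and 2204 bp in SISC and 1437 and 2196 bp in LISC, a gap between replicates that is larger than that between tissues. Of genes of Notch and BMP signalling, 4 of 21 had a member: the receptors Notch1 and Bmpr2 and the ligands Dll1 and Jag2. Notch1, at 2949 bp, had 1877 and 2844 bp in SISC and 1839 and 2493 bp in LISC.

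Of the Klf and Sp factors, which bind GC boxes, 6 of 21 had a member (28.6%): Klf9, Klf12, Klf13, Klf15, Klf16 and Sp3. Klf13 was even across libraries, with 2670 and 2752 bp in SISC 1 and 2 and 2641 and 2632 bp in LISC 1 and 2. Clock genes gave 3 of 18, namely Cry1, Bhlhe40 and Nfil3. Nfil3, a repressor of the bZIP family, had 2051 and 2083 bp in SISC, against 2281 and 2261 bp in LISC. Both LISC libraries were longer there.

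The forkhead and Sox families, which were listed after members had been seen, gave 10 of 35 (28.6%) and 7 of 17 (41.2%). Foxo1, at 3207 bp, had 2768 and 2988 bp in SISC 1 and 2 and 3068 and 2863 bp in LISC 1 and 2. Foxq1 had 2468 and 3041 bp in SISC and 2861 and 2856 bp in LISC. Sox9, a factor of crypt stem and Paneth cells, had 1258 and 2141 bp in SISC and 1706 and 2034 bp in LISC. The Sox2 region, at a gene better known from foregut and neural tissue, was called at 1497 and 1933 bp in SISC and at 1924 and 2118 bp in LISC. Of the 10 forkhead members, 5 were longer in both SISC libraries (Foxd2, Foxd3, Foxe1, Foxf1 and Foxl2) and none in both LISC libraries. Of the 7 Sox members 3 were longer in SISC (Sox5, Sox11 and Sox17) and 1 in LISC (Sox21). Among all members the shares longer in SISC and in LISC were 14.4% and 11.2%, and among all shared regions 24.2% and 19.2%. No test was made on these small counts. Sox17 had 1875 and 2133 bp in SISC, against 1205 and 1315 bp in LISC. Foxd1 was also a member, so a broad region was not limited to genes known for the adult intestinal epithelium.

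Genes of ribosomal proteins, the proteasome and complex I had broad regions less often than genes in general. Mitochondrial ribosomal proteins (6.85%) and Zfp genes (7.12%) lay closer to the 9.93% over all genes with a shared region. The list of housekeeping genes lay above it, with 2 of 15 (13.3%). The share was 1 of 74 for ribosomal proteins (Rpl7, in a region shared with Rdh10), 0 of 41 for proteasome subunits, 1 of 43 for complex I subunits (Ndufa13, shared with Tssk6), 5 of 73 for mitochondrial ribosomal proteins and 20 of 281 for Zfp zinc finger genes; the last 4 lists were added later. The median width was 1235.5 bp for ribosomal proteins and 1244 bp for proteasome subunits. A shared region of any width was present at 96.1% of ribosomal protein genes, 85.4% of proteasome genes and 78.1% of Zfp genes, and at 91.2% of chromatin regulators. Genes of proliferation and replication gave 2 of 30 (Ccnd2, Plk1), histones 3 of 47 (H2ac12, H2bc12 and H4c11) and Hox genes 2 of 28 (Hoxb4, Hoxb9). Single histone genes lie among near-identical copies, so their values are uncertain. Hoxb9 had 1334 and 1412 bp in SISC 1 and 2, against 1959 and 2094 bp in LISC 1 and 2. Its fold ran the other way, at 9.65 and 6.10 in SISC, against 5.00 and 3.67 in LISC.

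Lists of differentiated and non-epithelial cells were short, and their counts are given only as counts. Absorptive genes gave 1 of 11 (Mttp, needed for lipoprotein assembly, in a region shared with Trmt10a), secretory lineages 0 of 11, immune genes 0 of 3 and olfactory receptors 0 of 12. Genes of junctions and keratins gave 4 of 19 (Cldn15, Ocln, Krt8, Dsp). The Krt8 region was shared with Krt78, held no base of Krt8 and lay 7685 bp from the nearest listed start of Krt8. The stromal list gave 1 of 5, at Vim, an intermediate filament gene of mesenchymal cells. Its region of 3087 bp was called at 2427 and 2709 bp in SISC 1 and 2 and at 2669 and 2957 bp in LISC 1 and 2, with a percentile of −log10 q of 50.7 and 56.3 in SISC and of 61.2 and 57.0 in LISC. Of the 8 stromal, endothelial and muscle markers, Pecam1, Cdh5 and Col3a1 had no called gene end in any library. Col1a1, Myh11 and Des had one in every library, and Pdgfra and Acta2 in some.

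**Figure D3:**
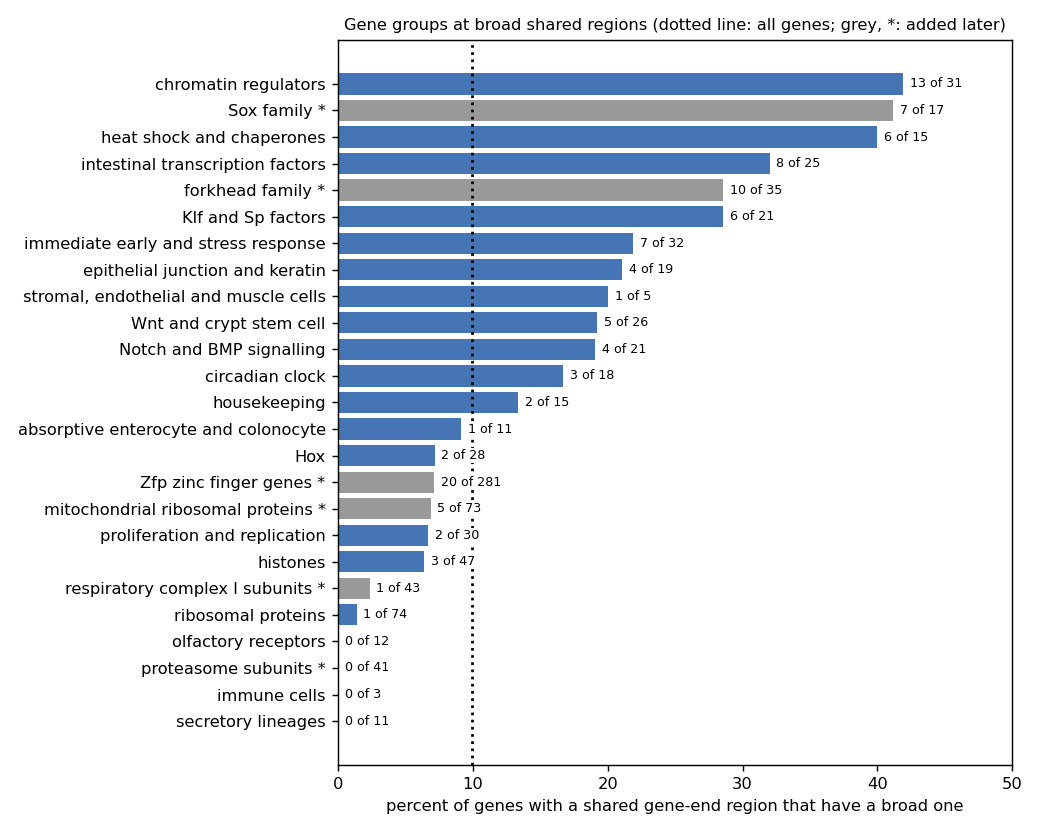
Percent of the genes with a shared gene-end region that have a broad one (x axis) for each gene list (y axis), with the counts beside the bars and a dotted line at 9.93%, the share over all genes. Chromatin regulators (13 of 31) and heat shock genes (6 of 15) lie far to the right of the line, and ribosomal proteins (1 of 74) and proteasome subunits (0 of 41) to its left; grey bars with an asterisk are lists added after members had been seen.

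Stress genes included members at 3′ ends. Of heat shock and chaperone genes 6 of 15 had a member (40%): Hspa1a, Hspa8, Hsp90aa1, Hsp90ab1, Dnaja1 and Hspd1. Of immediate early and stress response genes it was 7 of 32 (21.9%): Fosb, Jun, Egr1, Ier5, Dusp6, Csrnp1 and Sik1. Of the 33 members at 3′ ends only, 5 (15.2%) lay at genes of these lists, namely Fosb, Jun, Csrnp1, Hspa1a and Hspd1. Of 822 members at 5′ ends it was 4 (0.487%), of 1316 narrower regions at 3′ ends 6 (0.456%) and of 8523 at 5′ ends 33 (0.387%). These counts cover only regions whose genes all have a listed start. The members at Egr1, Sik1, Hspa8, Hsp90aa1, Hsp90ab1 and Dnaja1 are therefore in neither group. Among members at 5′ ends, 0 of 822 lay at a heat shock or chaperone gene for that reason. The contrast was picked after the values had been seen and was not tested.

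The Fosb region, at chr7:19301584-19304711, covered 2016 bp at the 3′ part of this AP-1 subunit gene, and its nearest annotated start was 5334 bp away. It was called at 2103 and 2488 bp in SISC 1 and 2 and at 2520 and 257 bp in LISC 1 and 2. LISC 2 alone was short, and the fold was low in all, at 2.52 and 2.27 in SISC and 2.42 and 2.49 in LISC. Jun, another AP-1 subunit, had a region of 3026 bp over its start and a second of 2130 bp at its 3′ end. The second was called at 1946 and 1372 bp in SISC and at 2120 and 581 bp in LISC, with a fold of 3.18 and 1.96 in SISC and 3.03 and 1.90 in LISC. Csrnp1 likewise had a member at each end. The Hspa1a region covered 62.5% of this inducible Hsp70 gene from the 3′ side, with 2262 and 2630 bp called in SISC and 2286 and 2391 bp in LISC. Hspa1a has a near-identical neighbour, Hspa1b, so reads may have been placed on either copy and this value is uncertain.

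Hspa8, the constitutive Hsc70, also had 2 members. The Hsp90aa1 region, at chr12:110687687-110691010, held none of the gene and ended just below its lower coordinate. It was called at 3051 and 1886 bp in SISC 1 and 2 and at 2813 and 1280 bp in LISC 1 and 2, longer in the replicate 1 libraries, against the direction of the lists as a whole. No strand is listed for Hsp90aa1 in the tables used.

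The 33 members at 3′ ends only were low in height. Their median fold was 5.55 and 4.66 in SISC 1 and 2 and 4.90 and 4.34 in LISC 1 and 2, against 8.77 and 6.95 in SISC and 8.40 and 6.25 in LISC for members at 5′ ends. Narrower regions were likewise lower at 3′ ends, so this was not particular to the members. Their median fold was 6.63 and 5.96 in SISC and 6.39 and 4.80 in LISC at 3′ ends. At 5′ ends it was 11.2 and 9.06 in SISC and 10.9 and 7.99 in LISC. The median width of the 33 members was 2242 bp, where narrower regions at 3′ ends had 757 bp, a gap whose direction the width rule sets. The widest of the 33 was at Zc3h12a, the RNase that degrades inflammatory transcripts, with 3206 bp. It was called at 3061 and 2563 bp in SISC and at 2375 and 2745 bp in LISC. Others lay at Glul, the glutamine synthetase gene, with 2346 bp, and at Atg2a, an autophagy lipid transfer protein, with 2813 bp.

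The 10 widest members included those at Jade2, Kcnq1, Ihh, LOC108167694, Atxn1, Hsp90aa1, Nck2, Lratd2 and Foxo1. Jade2, a PHD finger protein, lay at chr11:51855313-51859151. It was called at 3331 and 3834 bp in SISC 1 and 2 and at 3584 and 3506 bp in LISC 1 and 2, as 3 peaks and 1 peak in SISC and as 2 peaks in each LISC library. Ihh, at chr1:74948715-74952229, was called at 2906 and 3515 bp in SISC and at 2360 and 3396 bp in LISC, and took in 46.5% of the gene. Kcnq1, a potassium channel subunit, had 2914 and 2970 bp in SISC, against 2369 and 2625 bp in LISC, with both SISC libraries longer. The region at LOC108167694 and Gm20783 on chromosome 9 was the evenest, with 3482 and 3468 bp in SISC and 3433 and 3439 bp in LISC. Lratd2 had 2944 and 3057 bp in SISC, against 3232 and 3258 bp in LISC, with both LISC libraries longer. Nck2, a signalling adaptor, and Atxn1, a transcriptional co-repressor, overlapped between tissues.

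Between the tissues, most members had the same called length within the spread of the libraries. Both SISC libraries were longer than both LISC libraries at 161 members (14.4%), where the share over all shared regions was 24.2%. Both LISC libraries were longer at 125 (11.2%), against 19.2% over all shared regions. Narrower regions at gene ends gave 19.5% longer in SISC and 10.3% longer in LISC, so the low LISC share was not particular to the members. Broad shared regions away from gene ends gave 16.5% longer in SISC and 23.6% longer in LISC. With 2 libraries against 2, the smallest two-sided exact permutation p is 0.333, so that test cannot pass at a single member; no other test was made. SISC 2 was longer than SISC 1 at 1059 members (94.8%), against 80.1% of all shared regions, and LISC 2 longer than LISC 1 at 839 (75.1%), against 59.8%. Within replicate 1, SISC was longer at 415 members (37.2%, against 43.3%), and within replicate 2 at 761 (68.1%, against 62.1%). The more frequent direction between tissues thus turned round from one replicate number to the other. Many single members kept 1 direction. SISC was longer within both replicate numbers at 343 members (30.7%, against 33.7% of all shared regions). LISC was longer within both at 279 (25.0%, against 27.6%). The median difference in mean called length was 11.5 bp, SISC minus LISC. The median size of the difference was 116 bp between the means of the tissues. Between single libraries it was 305 bp in SISC and 145 bp in LISC. A mean of 2 libraries varies less than a single library, so these sizes are not like measures. The counts of members longer in SISC or in LISC moved when a library was left out, which leaves 1 library in a group and makes overlap rarer in any region. Without SISC 1 the members longer in SISC numbered 707 (64.7%, against 52.8% of all shared regions). Without SISC 2 they numbered 92 (12.5%, against 27%) and without LISC 2 371 (39.3%, against 40.8%). Those longer in LISC numbered 467 without SISC 2 (63.4%, against 47%) and 324 without LISC 1 (29.9%, against 33.2%).

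The means of the tissues were within 200 bp of each other at 769 members (68.8%) and more than 500 bp apart at 94. A gap over 500 bp was thus found at 8.42% of members, against 3.63% of all shared regions, and a narrow region has less length to differ in. The share was 1.96% in narrower regions at gene ends and 18.4% in broad shared regions away from gene ends. Of those 94, both SISC libraries were longer at 63 (5.64% of members, against 1.99% of all shared regions) and both LISC libraries at 25 (2.24%, against 1.6%). At the other 6 the libraries overlapped, as at Fosb above, where LISC 2 alone was short.

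**Figure D4:**
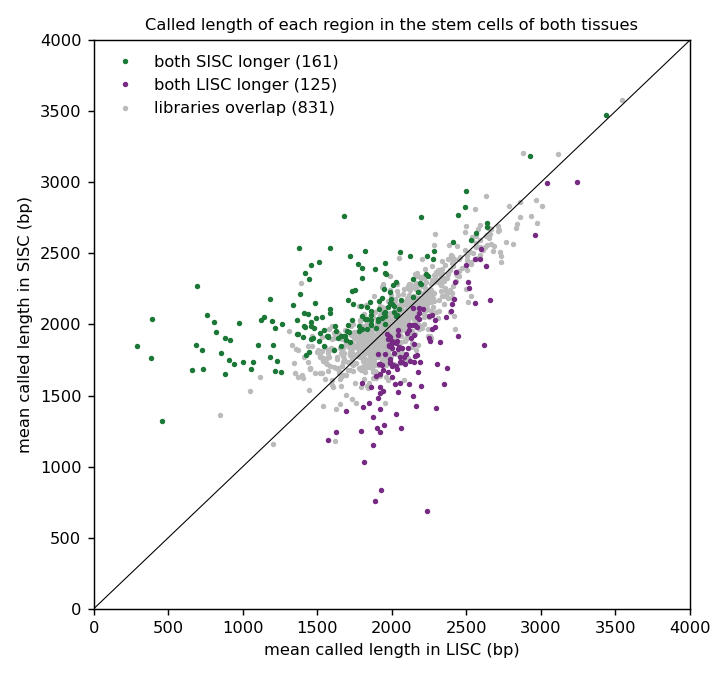
Mean called length of each of the 1117 regions in SISC (y axis, bp) and in LISC (x axis, bp), with the line of equality. Green points (161) are longer in both SISC libraries and purple points (125) in both LISC libraries, and most regions lie near the line.

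The members with the largest lead in SISC had shorter called stretches in both LISC libraries, which is how they were chosen. Gfra1, the GDNF co-receptor, had 1735 and 2345 bp in SISC 1 and 2, against 252 and 527 bp in LISC 1 and 2. Fam20c, a Golgi kinase of secreted proteins, had 2211 and 2332 bp in SISC, against 777 and 610 bp in LISC. Its fold was 9.74 and 7.83 in SISC, against 8.18 and 4.12 in LISC. Smarcd3, a BAF remodeller subunit, had 1554 and 2143 bp in SISC, against 317 and 261 bp in LISC. Wdr63, a member at a 3′ end, had 1596 and 1931 bp in SISC, against 265 and 503 bp in LISC. Sox11 had 1899 and 2231 bp in SISC, against 861 and 663 bp in LISC, with a fold of 4.47 and 4.60 in SISC and 4.79 and 4.20 in LISC. At Sox11 the length differed between the tissues while the summit heights overlapped, and at Fam20c the heights overlapped as well.

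The members with the largest lead in LISC were chosen in the same way, and their heights did not all follow their lengths. Fem1al had 481 and 898 bp in SISC 1 and 2, against 2174 and 2296 bp in LISC 1 and 2. Slc9a9, an endosomal sodium-proton exchanger, had 683 and 989 bp in SISC, against 1866 and 1986 bp in LISC. Its fold was 4.23 and 4.14 in SISC, against 7.45 and 5.30 in LISC, without overlap. The region at Tnfrsf25, a death receptor, and Plekhg5 had 810 and 704 bp in SISC, against 2398 and 1371 bp in LISC, and no base of it was called in all 4 lists. Oxct1, which activates ketone bodies for oxidation, had 1417 and 1412 bp in SISC, against 2109 and 2487 bp in LISC; without LISC 2 the region was shorter and the difference turned to 114.5 bp, SISC minus LISC. Ikzf2, the zinc finger factor Helios, had 862 and 1683 bp in SISC, against 1891 and 2233 bp in LISC. Its fold ran the other way, at 8.20 and 7.18 in SISC, against 6.17 and 4.80 in LISC, and at Oxct1 the fold was 10.1 and 8.03 in SISC and 9.44 and 6.61 in LISC, which overlap.

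**Figure D5:**
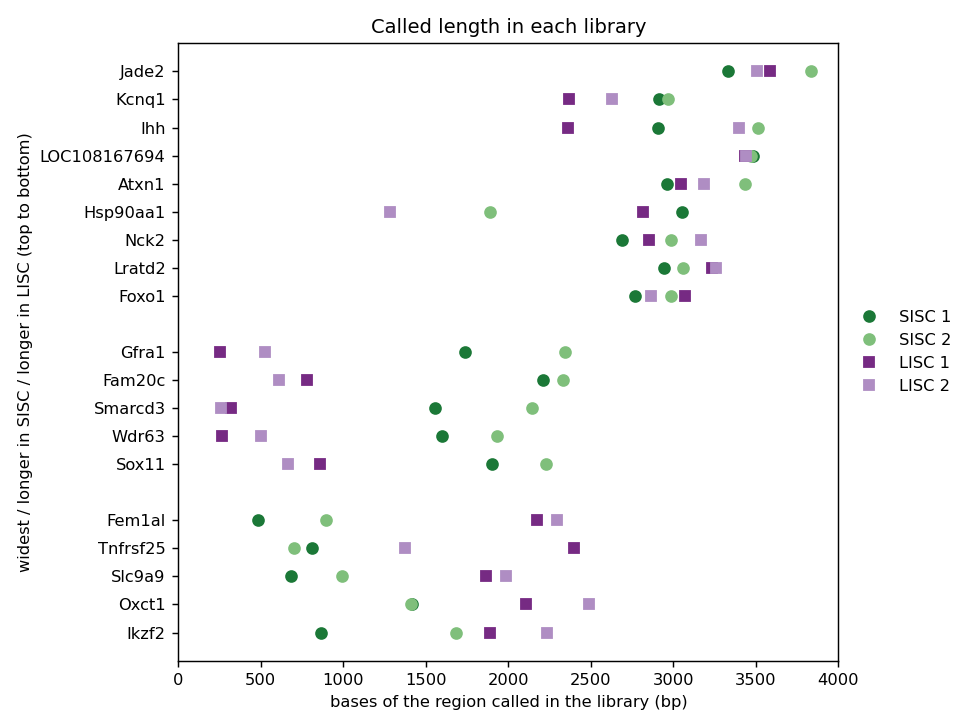
Bases of the region called in each library (x axis, bp) for 9 of the 10 widest members, the 5 with the largest lead in SISC and the 5 with the largest lead in LISC (top to bottom). Circles are SISC and squares LISC; among the widest the symbols mix at most genes, while in the lower blocks they separate, as the choice of these members requires.

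Of the 71 members at genes of the 19 first lists, 12 were longer in both SISC libraries and 3 in both LISC libraries, and at 56 the libraries overlapped. These are 16.9% and 4.23%, where all members gave 14.4% and 11.2% and all shared regions 24.2% and 19.2%. The 12 were at Csrnp1, Sik1, Cdx1, Gata5, Maf, Jag2, Eed, Chd7, Dnaja1, Hspd1, Klf13 and H4c11, and the 3 at Nfil3, Dsp and Hoxb9. Dnaja1, an Hsp40 co-chaperone in a region shared with Smu1, had 2738 and 2795 bp in SISC, against 2141 and 1213 bp in LISC. Hspd1, the mitochondrial chaperonin, had 1845 and 2222 bp in SISC, against 1112 and 1138 bp in LISC. At Klf13 and Dsp the distance between the groups was under 50 bp at its narrowest.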

How the data were processed

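ATAC-seq peak lists of 4 libraries (SISC 1 and 2, LISC 1 and 2) were used. The submitters' processing notes name MACS2 2.2.7.1, bedtools, Picard, Bowtie2 2.3.4.1, cutadapt 3.4 and the build mm10. Settings, Tn5 shifting and duplicate handling are not given in the sources available for this work. The authors deposited, per peak, a fold enrichment (ratio) at the summit and a −log10 q, both relative to that library. The deposited peak lists hold no read counts, so depth is unknown for every library, and a stretch outside a list was not called rather than closed.

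Peaks were merged on 1 bp of overlap, and merging was checked against bedtools 2.31.1 and tested on simulated data. Gene ends came from a RefSeq table (GRCm38.p6, the coordinates of mm10) of 20661 protein-coding genes without strand; strand and start came from the RefSeq promoter table, which covered 16456 of them. The members and the gene lists were chosen with earlier results of these data known. Named are the 10 widest members, the 5 nearest the threshold on each side, the 5 with the largest lead in each tissue, up to 3 genes per list, the 5 members with the most genes (a few genes so chosen are left out here), and others chosen after their values were seen: further genes of the lists and the widest members at 3′ ends. Height was compared by an exact sign-flip permutation over 4 libraries. Alternatives were other widths, windows, overlaps, stronger peaks and leaving out each library. Software was scipy 1.17.1, pandas 2.3.3, numpy 2.4.6, matplotlib 3.10.9 and Python 3.11.15.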

Additional observations from a re-analysis of the deposited data

How the results depend on the processing

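Library depth, the animal behind each library and the peak-calling threshold are unknown, and no single region was tested. Compared within replicate numbers (a replicate block, chosen after seeing the data), SISC was longer in both at 343 members and LISC at 279, where 33.7% and 27.6% of all shared regions were so; the replicate differences of the tissues correlated at r = 0.277 over 1117 members, and the labels do not say that a number pairs libraries. The number of members, 1117, was 4309 at a width of 1500 bp, 31 at 3000 bp and 206 when the width was counted over bases called in all 4 lists; it was 737 to 1093 with 1 library left out. In the same order, those longer in both SISC libraries (161) numbered 658, 3 and 22, and those longer in both LISC libraries (125) 388, 4 and 16. These were 9.68% to 15.3% of members for SISC and 7.77% to 12.9% for LISC, against 24.2% and 19.2% of all shared regions. With the 41721 strongest peaks of each list, 101 were longer in both SISC and 105 in both LISC libraries, so SISC no longer led (17.7% and 15.5% of all shared regions). Leaving out 1 library gave 92 to 707 longer in SISC and 103 to 467 longer in LISC, where 27% to 52.8% and 25% to 47% of all shared regions were so. A single broad peak in every library (116 members) was found at 7 at 3000 bp, and at 118 to 209 with 1 library left out. The share with 2 or more genes (17.5%) was 20.9% with a window of 2500 bp, and 16.01% to 18.1% with 1 library left out. The CpG-rich share (79.6%) was 75% at 3000 bp. The difference in median height (-1.58) was 0.140 at 1500 bp, a change of sign; the other alternatives gave -0.629 to -3.84. List genes at members (68) numbered 191 at 1500 bp and 17 by bases called in all 4 lists. SISC minus LISC called length, as percent of width (0.376), ran over -8.02 to 8.07 with 1 library left out. Of values for single named regions, 415 moved by less than the spread between libraries, 122 moved by more and 1 changed sign, SISC minus LISC at Oxct1, which ran over -1072.5 to 114.5 bp with 1 library left out. The causes were not tested.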
